A study of Homo sapiens with 6 samples.

Results

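The 10 genes described here encode enzymes that remove superoxide and peroxides, together with the selenium carrier of plasma. They are the glutathione peroxidases GPX1, GPX2, GPX3, GPX4, GPX7 and GPX8, the catalase CAT, the superoxide dismutases SOD1 and SOD2, and the selenoprotein SELENOP. They were chosen by name as an enzyme group and not by their values, but with earlier results of these data known. GPX2 is also a gene that the study had picked out from these libraries. All 10 were found among the 61543 rows of the deposited count table, and all 10 were among the 14104 rows that passed the filter on low counts and were tested. RNA was measured by RNA-seq in luciferases-expressing HepG2 cells, a human hepatoblastoma line that carries SLR3 luciferase under an antioxidant response element (ARE) and ELuc luciferase under a TK promoter. The cells were either exposed to sedanolide, a phthalide of celery, at 100 μM for 24 h or left as controls (n = 3 libraries each). The control libraries are labelled only as control, the same reporters are carried by both groups, and all libraries come from a single cell line. The labels do not say whether the replicates came from separate cultures, so the p-values measure the spread between these libraries, which may be technical.

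Superoxide is turned into hydrogen peroxide by superoxide dismutases. Hydrogen peroxide is broken down by catalase in peroxisomes and, in other places, by glutathione peroxidases such as GPX1, which spends glutathione. In hepatocytes, GPX1 works in the cytosol and mitochondria, GPX4 reduces lipid peroxides within membranes, and GPX3 and SELENOP are secreted. Several of these proteins are selenoproteins, in which a UGA codon that would normally end translation is read as selenocysteine. NRF2, the transcription factor that binds AREs, is known to drive GPX2, an enzyme that was first described in the gut epithelium and is also made in liver cells.

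The codon at the catalytic site separates the 6 glutathione peroxidases, and it is shown here because the selenoproteins among the 10 genes are described together. Each line gives 33 bases of the coding sequence, read from the canonical GENCODE 44 transcript, with the codon in capitals and 15 bases on each side.
GPX1: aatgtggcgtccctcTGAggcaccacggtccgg
GPX2: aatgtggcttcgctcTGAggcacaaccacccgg
GPX3: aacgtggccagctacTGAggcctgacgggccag
GPX4: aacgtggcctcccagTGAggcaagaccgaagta
GPX7: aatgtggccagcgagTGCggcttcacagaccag
GPX8: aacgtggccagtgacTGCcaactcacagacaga
SELENOP: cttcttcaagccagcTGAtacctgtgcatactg
The capitals are the annotated selenocysteine codon TGA in 4 glutathione peroxidases, namely codon 49 of 203 in GPX1, codon 40 of 190 in GPX2, codon 73 of 226 in GPX3 and codon 73 of 197 in GPX4. In GPX7 and GPX8, which reside in the endoplasmic reticulum, the codon that aligns with that of GPX4 is TGC, a cysteine codon, at position 57 of 187 and 79 of 209. SELENOP, which carries selenium from the liver to other tissues, has 10 annotated selenocysteine codons in 381, and the line shows the first of them, at codon 59. CAT, SOD1 and SOD2 have no annotated selenocysteine.

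The libraries had 16420258 to 22940963 expected counts in control cells and 19027265 to 26714853 in sedanolide-treated cells. All 9 markers of HepG2 identity (among them ALB, AFP, APOA1 and TTR) were above 20 CPM (counts scaled to library size) in every library, with a summed level of 26950 to 42220 CPM in controls and 19350 to 35331 CPM after sedanolide. Of 6 markers of other cell types, PTPRC, COL1A1, COL3A1 and CDH5 had at most 3 counts in every library, CD68 was at 9.10 to 14.4 CPM and PECAM1 at 3.79 to 5.13 CPM, and the 6 together summed to 13.3 to 18.8 CPM and 18.3 to 19.5 CPM. The libraries also differed in a way that followed the treatment only in part. The first principal component, which held 56.1% of the variance, set control 1 and control 2 together with sedanolide 3, and it set control 3 together with sedanolide 1 and sedanolide 2. The sides were thus not balanced between the groups, and differences from the condition alone are partly mixed with the side. The share of mitochondrial counts was 1.43% to 2.15% on the former side and 4.23% to 5.22% on the latter. For genes that move with these sides, values are therefore also given within each side or from a fit with the side as a covariate. That choice was made after the data were seen. The sides were read from the same counts that were tested, so p-values from that fit are descriptive and not independent support.

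GPX2 was the member of the group that rose with sedanolide. Its normalized level was 69.9, 57.2 and 80.4 CPM in controls 1 to 3 and 209, 208 and 176 CPM in sedanolide 1 to 3. All sedanolide-treated libraries were thus above all controls, and the groups did not overlap. The mean rose from 69.1 ± 11.6 to 198 ± 18.9 CPM (SD, n = 3 libraries), a fold change of 2.86. The log2 fold change was 1.52 (SE 0.161, 95% interval 1.14 to 1.89), and the adjusted p was 0.0172 in edgeR's quasi-likelihood test over all genes. The values rest on 1153 to 1422 expected counts per control library and 3880 to 5397 per treated library. Within the sides of the first component, the log2 fold change was 1.47 among control 1, control 2 and sedanolide 3. It was 1.37 among control 3, sedanolide 1 and sedanolide 2. On each side, 1 of the groups was a single library, so no error is given for these or the later within-side values. With the side as a term, the log2 fold change of GPX2 was 1.42 (SE 0.103, adjusted p = 0.000165 in edgeR).

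GPX2 was the 1 gene of the 10 that passed both thresholds of the study's methods, which are a 1.5-fold difference and a false discovery rate (FDR) of 0.05. Over all genes tested, 0.674% passed both thresholds in either direction, 0.362% being higher and 0.312% lower. GPX2 was also the 1 member called by DESeq2, which called 2.33% of all genes (0.922% higher and 1.4% lower), and the 1 member called with the side as a term, where 2.7% of all genes were called (1.07% higher and 1.63% lower). The size of the GPX2 difference changed little when single libraries were left out, but its call did not hold in every case. Without control 1, control 2, sedanolide 1 or sedanolide 2 the log2 fold change was 1.51, 1.39, 1.47 and 1.47, respectively, and the adjusted p in edgeR was 0.167, 0.0828, 0.0689 and 0.161.

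**Figure D1:**
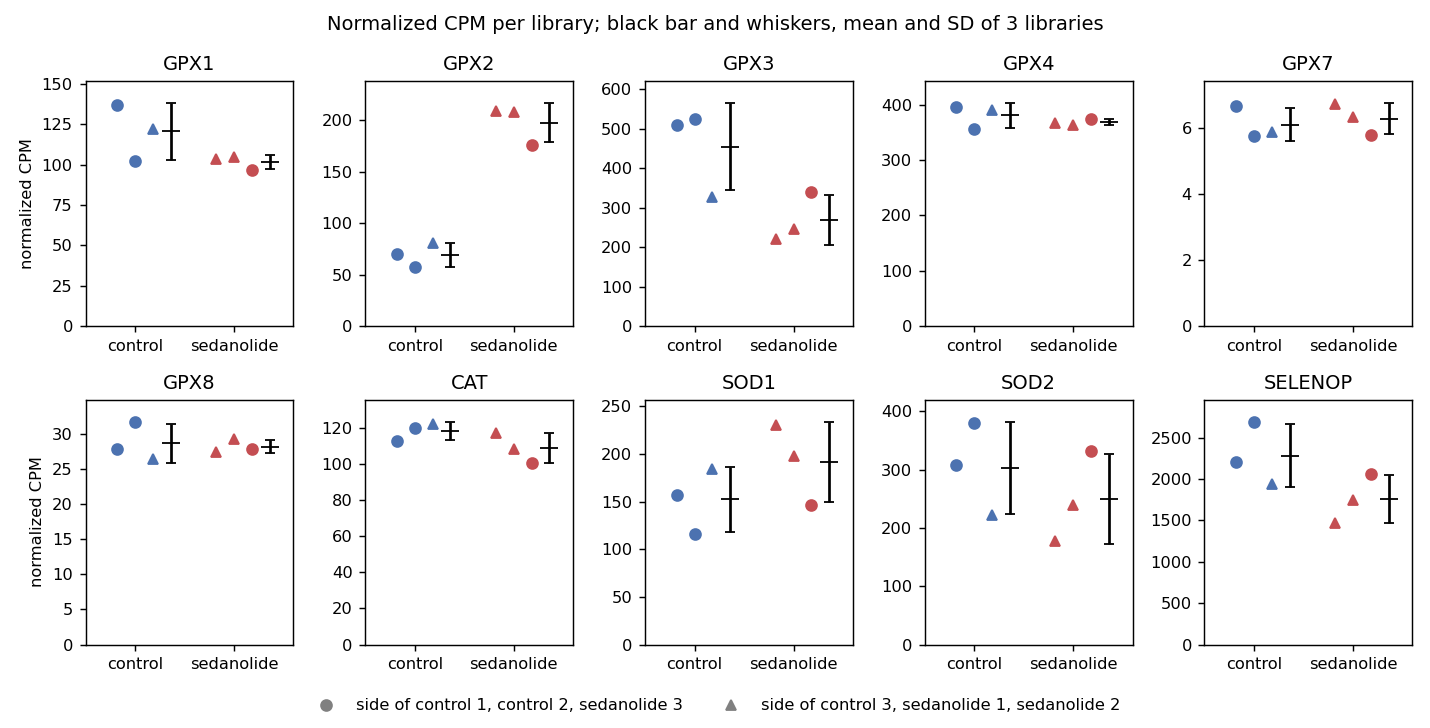
Normalized CPM of the 10 genes in each of the 3 control (blue) and 3 sedanolide-treated (red) libraries, with circles and triangles for the 2 sides of the first principal component and black bars for the mean and SD. GPX2 is separated by treatment (69.1 against 198 CPM), whereas in SOD1 and SOD2 the circles and triangles differ from each other within both treatments.

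The GPX2 gene lies on chromosome 14 (64939152 to 64942746, minus strand, GRCh38), and its promoter was searched for the core ARE motif TGACNNNGC on both strands. In RefSeq promoter windows of GRCh38.p14, which run from 250 bases before to 50 bases after a gene start, 4663 of 34943 windows held the motif (13.3%). Of the 10 genes, 9 have such a window, GPX4 and SOD2 having several, and the windows of GPX2 and SELENOP held a match. The share over all windows is counted per window, so it is not set against a count of genes. The matched stretches are shown on the strand of the gene, with the match in capitals.
GPX2 (chr14:64942834-64942892, minus strand): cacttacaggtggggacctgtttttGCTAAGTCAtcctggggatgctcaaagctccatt
SELENOP (chr5:42811958-42812016, minus strand): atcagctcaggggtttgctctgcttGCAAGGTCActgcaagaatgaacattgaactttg
Both matches read as the motif on the strand opposite to the gene, and begin 122 bases before the GPX2 start and 99 bases before the SELENOP start. The 2 genes with the motif had log2 fold changes of 1.52 and -0.38, so the motif was found both in the gene that rose and in a gene that was not called. A match of these letters is a description of the window, and binding was not measured in these libraries.

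GPX3, the secreted plasma glutathione peroxidase, had the lowest log2 fold change of the 10 genes but was not called. It was measured at 510.2, 525 and 328 CPM in controls 1 to 3 and at 219.6, 247 and 341 CPM in sedanolide 1 to 3. The groups overlapped, since control 3 lay below sedanolide 3, and on either side of the first component the treated libraries were below the controls. The means were 455 ± 110 and 269 ± 63.5 CPM, with a log2 fold change of -0.76 (SE 0.238, 95% interval -1.32 to -0.20). The unadjusted p was 0.0152 and the adjusted p 0.277 in edgeR, and the adjusted p was 0.10 in DESeq2. Within the sides the log2 fold changes were -0.60 and -0.49. With the side as a term, the log2 fold change of GPX3 was -0.55 (95% interval -0.75 to -0.34, adjusted p = 0.0125 in edgeR), which passed the FDR threshold and not the fold change threshold.

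SELENOP, the other secreted member, had the highest CPM of the 10 genes, a measure not scaled by transcript length. Its level was 2208, 2691 and 1942 CPM in controls and 1472, 1744 and 2056 CPM in sedanolide-treated libraries. As in GPX3, the groups overlapped through control 3 and sedanolide 3, and the treated libraries were below the controls of their own side. The log2 fold change was -0.38 (SE 0.180, 95% interval -0.80 to 0.05, adjusted p = 0.466 in edgeR), with -0.25 and -0.28 within the sides, and SELENOP was not called. Its exons share 1452 bases with exons of CCDC152 on the opposite strand. The CCDC152 counts were 0.790% of those of SELENOP, and the strand setting of the authors' counting is not given in the sources used here.

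GPX1, a glutathione peroxidase of the cytosol and mitochondria, was measured at 137, 102 and 122 CPM in controls and 103, 105 and 96.9 CPM after sedanolide. The treated libraries lay close together and near the lowest control, control 2, which overlapped with them. The log2 fold change was -0.25 (SE 0.137, 95% interval -0.57 to 0.08, adjusted p = 0.533 in edgeR). Reads of GPX1 could be shared with its processed pseudogene GPX1P1, whose counts were 0.861% of those of GPX1. GPX4, the peroxidase of membrane phospholipids, varied little among the libraries. It had 395, 355 and 391 CPM in controls and 367, 364 and 375 CPM in treated libraries, all of which fell within the range of the controls. Its log2 fold change was -0.05 (SE 0.106, 95% interval -0.29 to 0.20, adjusted p = 0.890 in edgeR).

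The cysteine-type peroxidases of the endoplasmic reticulum were low, and neither was called. GPX7 was at 5.76 to 6.66 CPM in controls and 5.79 to 6.72 CPM in treated libraries, with overlapping groups and a log2 fold change of 0.04 (SE 0.143, 95% interval -0.29 to 0.38). GPX7 had 104 to 164 expected counts per library. GPX8 was at 26.4 to 31.8 CPM and 27.5 to 29.3 CPM, so that its treated libraries lay inside the control range, with a log2 fold change of -0.02 (SE 0.119, 95% interval -0.30 to 0.26). The adjusted p in edgeR was 0.927 for GPX7 and 0.951 for GPX8.

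CAT, the peroxisomal catalase, was measured at 113, 120.0 and 122 CPM in controls and 117, 108 and 101 CPM after sedanolide. Sedanolide 1 lay above control 1, so the groups overlapped, and the other treated libraries were below all controls. The log2 fold change of CAT was -0.12 (SE 0.113, 95% interval -0.39 to 0.14, adjusted p = 0.706 in edgeR).

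The superoxide dismutases, neither of which was called, moved mainly with the sides of the first component. SOD1, the copper and zinc enzyme of the cytosol, was at 156, 116 and 184 CPM in controls and 230.1, 198 and 147 CPM in treated libraries. The library with least SOD1 in the treated group and the pair with least in the control group were all on the side with the smaller mitochondrial share. Its log2 fold change was 0.33 (SE 0.225, 95% interval -0.20 to 0.86, adjusted p = 0.612 in edgeR), and 0.16 with the side as a term, with 0.12 and 0.21 within the sides. SOD2, the manganese enzyme of mitochondria, showed the opposite order of libraries, with 308, 379 and 222 CPM in controls and 178, 238 and 332 CPM after sedanolide. Control 1, control 2 and sedanolide 3 held the 3 highest SOD2 levels of all libraries. The log2 fold change was -0.28 (SE 0.275, 95% interval -0.93 to 0.37, adjusted p = 0.722 in edgeR), and it was -0.07 with the side as a term, with -0.04 and -0.11 within the sides. In GENCODE 44, which holds SOD2 under an identifier (ENSG00000291237) other than that of the counted row (ENSG00000112096), exons of SOD2 share 133 bases with ACAT2 and 437 bases with WTAP on the opposite strand, whose counts were 62.3% and 32.5% of those of the counted SOD2 row, so part of the SOD2 reads is uncertain where strand was not used.

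**Figure D2:**
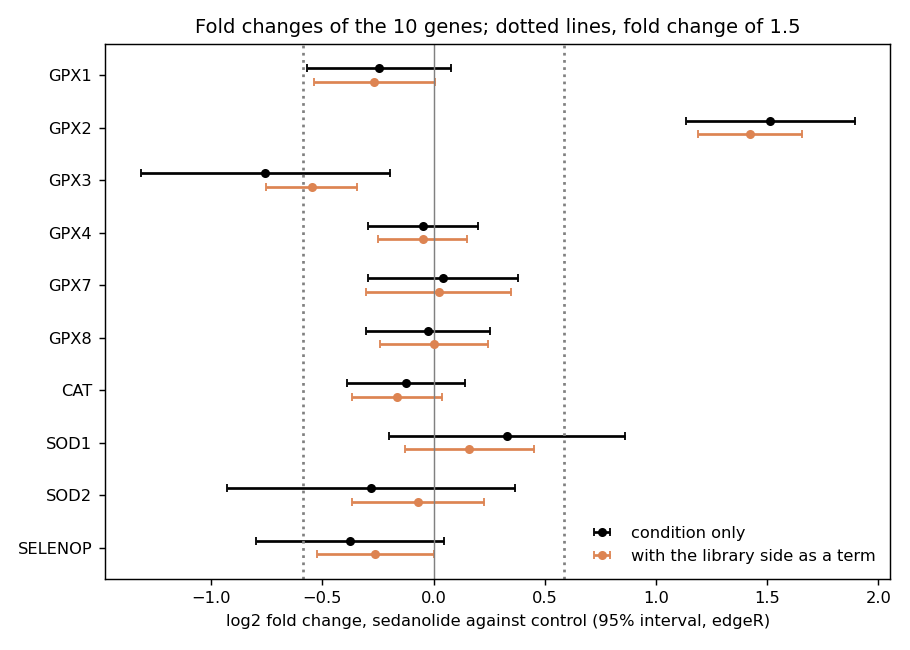
Log2 fold change (sedanolide against control, edgeR) with its 95% interval for the 10 genes, with the condition only (black) and with the side of the first component as a term (orange), and with dotted lines at a 1.5-fold change. The GPX2 interval (1.14 to 1.89) lies beyond the dotted line in full, and the GPX3 interval (-1.32 to -0.20) crosses it.

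The intervals separate the genes that were not called into those measured closely and those that were not. For GPX1, GPX4, GPX7, GPX8 and CAT the 95% interval in edgeR lay inside a 1.5-fold change in either direction, although that of GPX1 reached past it in the TPM table described next (-0.65 to -0.05 on the log2 scale). For the other 4 genes that were not called (GPX3, SOD1, SOD2 and SELENOP), the interval reached past a 1.5-fold change, so these libraries do not settle whether they differed by that much. Of the 10 genes, 3 had a positive and 7 a negative log2 fold change, with a median of -0.08 against 0.01 over all genes tested. The groups did not overlap in 1 of the 10 genes, against 18.3% of all genes tested in either direction. In these bulk samples, fewer cells of a type and less RNA per cell cannot be told apart.

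Levels of different genes were compared in TPM, which are scaled by transcript length as well as by library size, from the second deposited table. In control cells SELENOP had the highest level (2058 ± 478 TPM), followed by GPX4 (929 ± 34.6 TPM), GPX3 (477 ± 141 TPM), SOD1 (313 ± 49.2 TPM), GPX1 (250 ± 27.5 TPM) and SOD2 (224 ± 54.1 TPM). GPX2 (138 ± 14 TPM), CAT (86.3 ± 9.19 TPM), GPX8 (23.0 ± 2.82 TPM) and GPX7 (8.54 ± 0.833 TPM) came last. Neighbours in this control order were separate in every library for 6 of 9 pairs, whereas GPX3 and SOD1, SOD1 and GPX1, and GPX1 and SOD2 overlapped. After sedanolide the level of GPX2 was 367 ± 6.98 TPM, and its rank rose from 7 to 3. In the treated order 5 of 9 neighbouring pairs were separate. SELENOP, GPX4 and GPX2 were the first 3 genes of that order, and the TPM of GPX2, SOD1, GPX3, GPX1 and SOD2 overlapped from each neighbour to the next.

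**Figure D3:**
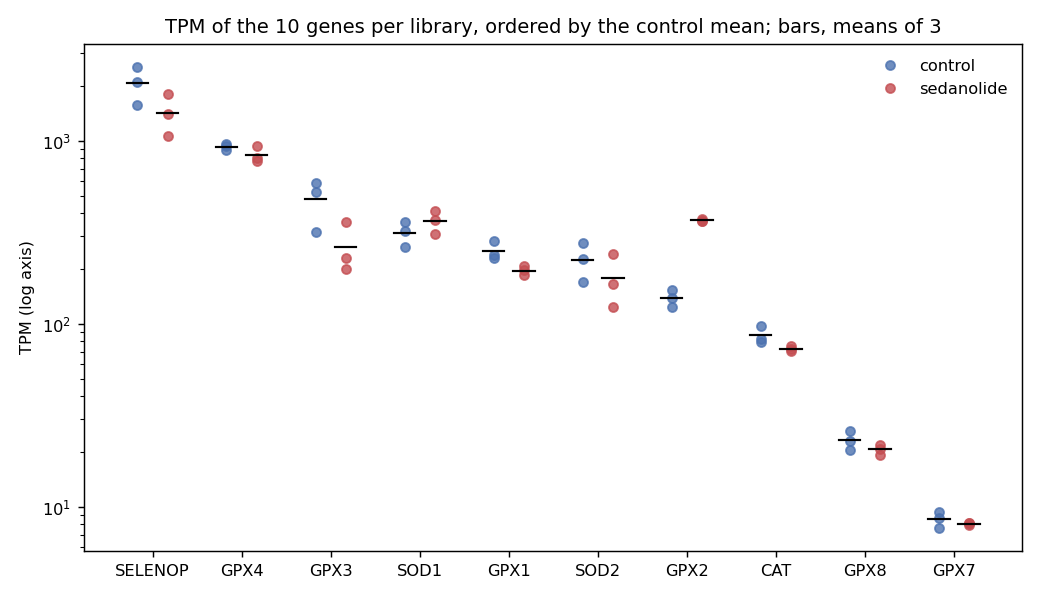
TPM of the 10 genes in each library on a log axis, ordered by the control mean (control blue, sedanolide red). GPX2 moves from 138 to 367 TPM, into the range of SOD1 and GPX3, while GPX7 and GPX8 stay far below the rest in every library.

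The table of log2(TPM + 1) was also tested by limma, and GPX2 was again the 1 member past both thresholds, with a difference of 1.41 (SE 0.121, 95% interval 1.12 to 1.69, adjusted p = 0.00897). Of the 11006 rows of that table, 0.554% passed both thresholds, 0.3% being higher and 0.254% lower. The TPM of GPX2 was 139, 124 and 152 in controls and 363, 375 and 362 in treated libraries, with no overlap between the groups. The adjusted p in limma was 0.10 without control 1, 0.0534 without control 2 and 0.111 without sedanolide 2, where the log2 differences were 1.41, 1.33 and 1.39. GPX1 and CAT, which overlapped in CPM, had TPM groups that did not overlap. GPX1 was at 281, 229.7 and 238 TPM in controls and 184, 195 and 206 TPM after sedanolide, a log2 difference of -0.35 (95% interval -0.65 to -0.05), but the adjusted p of 0.362 in limma did not pass. CAT was at 79.7, 96.8 and 82.3 TPM and at 75.8, 71.0 and 72.3 TPM, with a log2 difference of -0.23 and an adjusted p of 0.534 in limma. Over all rows of this table, the groups did not overlap in the lower direction for 11.3% and in the higher direction for 5.9%, and the median difference over its rows was -0.07. For GPX3 the log2 difference was -0.86 (95% interval -1.58 to -0.15, adjusted p = 0.342 in limma). With the side as a term it was -0.60 with an adjusted p of 0.0428, which passed both thresholds, in a limma fit that called 2.43% of all rows (0.79% higher and 1.64% lower).

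The make-up of the glutathione peroxidase transcripts differed between the groups more than their sum. The 6 genes summed to 1935, 1912 and 1627 TPM in controls and to 1544, 1628 and 1885 TPM after sedanolide, and the groups overlapped widely. GPX2 made up 7.18%, 6.47% and 9.33% of that sum in controls and 23.5%, 23.0% and 19.2% in treated libraries, with every treated library above every control. The mean share of GPX2 was 7.66% ± 1.49 and 21.9% ± 2.36 (SD, n = 3). GPX3 made up 27.1%, 30.8% and 19.5% in controls and 12.8%, 14.1% and 18.9% in treated libraries. The lowest control share of GPX3 was just above the highest treated one, both being those of the library that stood on the other side from the rest of its group. GPX4 held about the same share throughout, 51.1% ± 3.20 in controls and 49.5% ± 0.431 after sedanolide. Without GPX2, the sum of the other 5 genes was 1796, 1789 and 1475 TPM in controls and 1181, 1253 and 1523 TPM in treated libraries, with sedanolide 3 above control 3 and every treated library below the controls of its own side. For the superoxide dismutases, SOD1 made up 58.3% ± 9.76 of their summed TPM in controls and 67.4% ± 10.5 after sedanolide, a difference smaller than the SD of either group. These shares are descriptions and were not tested.

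**Figure D4:**
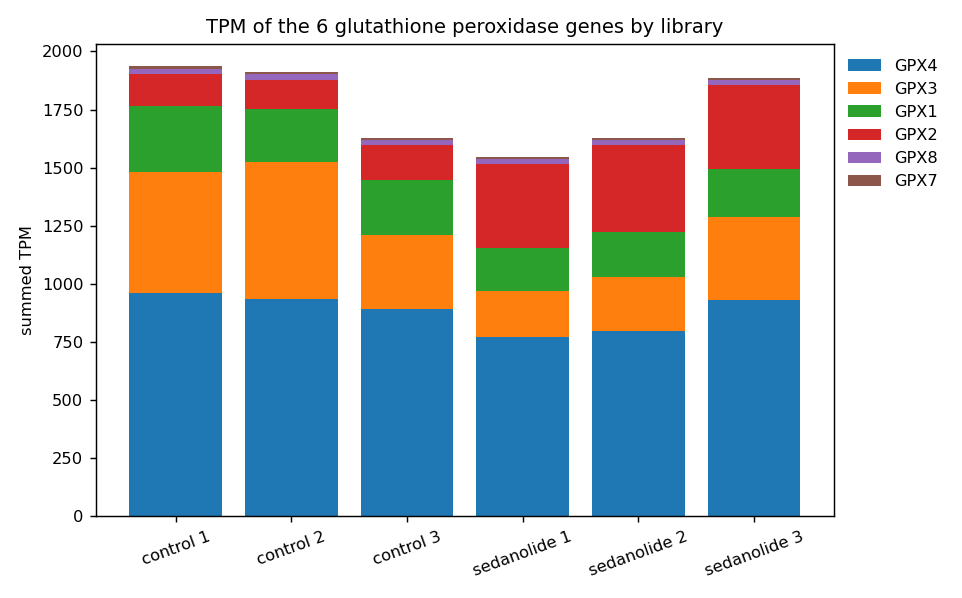
TPM of GPX1, GPX2, GPX3, GPX4, GPX7 and GPX8 stacked in each of the 6 libraries. The total ranges from 1544 to 1935 TPM, while the GPX2 layer widens from 6.47% to 9.33% of it in controls to 19.2% to 23.5% after sedanolide.

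Genes that belong to the surroundings of these enzymes were read from the same edgeR fit, in 7 lists of 94 genes. Of these, 74 were tested and 1 was called, where 0.674% of all genes tested were called. The lists were written with earlier results of these data known. The remaining members of the families were not expressed at a level that could be tested, since GPX5 and GPX6 had 0 counts in all libraries and SOD3, the extracellular superoxide dismutase, had at most 2 in any library. Among 16 other selenoproteins tested, TXNRD1, the cytosolic thioredoxin reductase, was called. It was at 169, 183 and 161 CPM in controls and 456, 494 and 493 CPM in treated libraries, which did not overlap. The log2 fold change of TXNRD1 was 1.49 (SE 0.113, adjusted p = 0.00469 in edgeR). The adjusted p in edgeR was 0.117 without control 1 (log2 fold change 1.47) and 0.0899 without sedanolide 2 (1.46), and TXNRD1 stayed called without each of the other 4 libraries. TXNRD1 had also been picked out by the study on these libraries. DIO1, a deiodinase of thyroid hormone, had the lowest log2 fold change of the list. It was at 16.3, 19.7 and 16.3 CPM in controls and 10.6, 9.77 and 9.99 CPM after sedanolide. The DIO1 groups did not overlap, and its log2 fold change was -0.79 (SE 0.133) with an adjusted p of 0.0618 in edgeR, which did not pass. DIO1 passed in DESeq2 (adjusted p = 0.000181) and with the side as a term (adjusted p = 0.0117 in edgeR). Of the 16 genes, 5 had a positive and 11 a negative log2 fold change, with a median of -0.08, and groups did not overlap in 1 gene in the higher and 5 in the lower direction, against 8.69% and 9.66% of all genes tested.

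The genes of selenium supply and selenocysteine insertion had no call among 10 tested in edgeR, with 1 gene at an unadjusted p under 0.05, against 1681 of all 14104 genes tested, and their median log2 fold change was 0.20. That median was 0.09 with the side as a term. Groups did not overlap in 3 genes in the higher and 0 in the lower direction, against 8.69% and 9.66% of all genes tested. LRP8, a receptor that takes up SELENOP, was at 11.9, 16.3 and 11.6 CPM in controls and 19.1, 22.4 and 29.7 CPM in treated libraries. All treated libraries exceeded the controls in LRP8, with a log2 fold change of 0.84 (SE 0.215) and an adjusted p of 0.186 in edgeR. LRP8 passed both thresholds in DESeq2 (adjusted p = 0.0338) and with the side as a term (log2 fold change 0.96, adjusted p = 0.00849 in edgeR). SEPSECS, the synthase that finishes selenocysteine on its transfer RNA, had the lowest value of the list, a log2 fold change of -0.28 (adjusted p = 0.595 in edgeR), which was -0.18 with the side as a term.

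None of the 9 genes that supply copper, zinc or manganese was called in edgeR or DESeq2, against 0.674% and 2.33% of all genes tested. None of the 9 had an unadjusted p under 0.05 in edgeR, against 1681 of all 14104 genes tested. SLC39A14, a metal importer that carries manganese, had the lowest log2 fold change of the 9, -0.52 (adjusted p = 0.440 in edgeR). Its level was 1798, 2032 and 1342 CPM in controls and 923, 1128 and 1552 CPM after sedanolide. SLC39A14 was highest in control 1, control 2 and sedanolide 3, and its log2 fold change was -0.35 with the side as a term and -0.30 and -0.39 within the sides. SLC39A8, a related importer, had the highest, 0.13, at a mean of 0.526 and 0.569 CPM, and its sign turned with the side as a term (-0.11). Among 15 peroxisome assembly genes, which bear on the import of CAT, none was called in edgeR or DESeq2 and 1 had an unadjusted p under 0.05 in edgeR. Their log2 fold changes had a median of -0.01. They ran from -0.41 in PEX11G, a factor of peroxisome division, to 0.46 in PEX3, which places membrane proteins in peroxisomes. PEX11G was low, at a mean of 0.564 CPM in controls and 0.420 CPM after sedanolide (SE of the log2 fold change 0.326). PEX7 was listed at 0 in all libraries.

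Of 13 tested enzymes that make superoxide or hydrogen peroxide, none was called in edgeR or DESeq2, and 2 had an unadjusted p under 0.05 in edgeR, against the 1681 of 14104 over all genes. Their median log2 fold change was -0.22, with 3 positive and 10 negative values. Groups did not overlap in 1 gene in the higher and 3 in the lower direction, against 8.69% and 9.66% of all genes tested. AOX1, the aldehyde oxidase, had the highest log2 fold change of them, 0.48 (adjusted p = 0.169 in edgeR), with 12.6 to 13.4 CPM in controls and 17.4 to 19.1 CPM in treated libraries that did not overlap. AOX1 passed the FDR threshold and not the fold change threshold in DESeq2 (adjusted p = 0.0248) and with the side as a term (adjusted p = 0.0496 in edgeR). The 11 tested genes of phospholipid peroxidation around GPX4 held no call in edgeR or DESeq2 and 1 gene at an unadjusted p under 0.05 in edgeR. They ranged from -0.49 in ALOX15, a lipoxygenase at a mean of 0.706 CPM in controls, to 0.57 in AIFM2, which reduces ubiquinone in membranes and was at 60.5, 45.4 and 73.8 CPM in controls and 110.1, 92.8 and 63.1 CPM after sedanolide (adjusted p = 0.436 in edgeR). AIFM2 was lower in control 1, control 2 and sedanolide 3 than in the other libraries, and its log2 fold change was 0.36 with the side as a term and 0.27 and 0.45 within the sides.

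**Figure D5:**
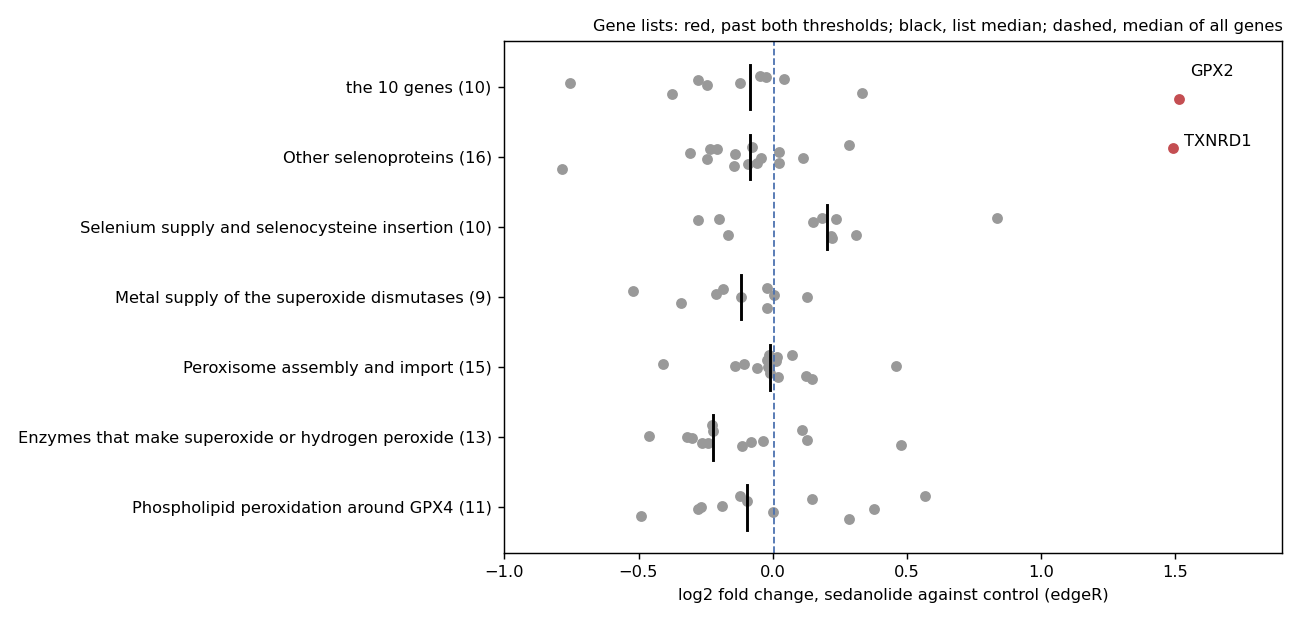
Log2 fold change (edgeR) of each tested gene in the 10 genes and in 6 surrounding lists, with the number tested in brackets, called genes in red, the median of each list as a black bar and the median of all genes tested as a dashed line. GPX2 (1.52) and TXNRD1 (1.49) stand to the right of all other genes shown.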

How the data were processed

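RNA-seq was analyzed in 6 libraries of luciferases-expressing HepG2 cells (3 control, 3 sedanolide). Per the labels and the study's methods, libraries were made from captured mRNA with a directional kit, and reads were checked with FastQC, trimmed with Trimmomatic, aligned to GRCh38 with STAR and quantified with RSEM. Versions, the annotation and the strand setting are not given in the sources used here. The authors deposited expected counts from RSEM, without normalization, and a table of log2(TPM + 1) with 11006 rows. The added 1 was inferred from the values, and TPM were recovered by undoing the log and taking it off.

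Members and gene lists were chosen with earlier results of these data known. Of the 10 members, 9 were matched through GENCODE 44 and SOD2 through the names of the log2 TPM table. The text names all members and, from each list, called genes and the highest and lowest log2 fold changes, except for items that are not reported here and stay in all fits and counts. The log2 fold changes of the members were read out, with every p-value adjusted over all genes by the Benjamini-Hochberg method.

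Expected counts were rounded, filtered with filterByExpr and scaled by TMM, and the robust quasi-likelihood test was run in edgeR 4.0.16 in R 4.3.3. Normalized CPM are mean ± SD. The log2 TPM values were tested with limma 3.58.1, and DESeq2 1.42.0 was an alternative, as were other filters and normalizations, limma-voom, the replicate number, each library left out, and a term for the side of component 1, chosen after seeing the data. The procedure was tested on simulated data. Sequences are from RefSeq (promoters) and GENCODE 44 (transcripts). Libraries were not duplicates, and none was left out of the main results.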

Additional observations from a re-analysis of the deposited data

How the results depend on the processing

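GPX2 kept its direction in all 14 alternatives, with log2 fold changes of 1.39 to 1.64, and was called in 9 of them. Of 140 values of the 10 genes under the alternatives, 131 kept their direction and call. Those that turned sign were near 0, namely GPX7 with library size only (-0.0015), GPX8 with a term for the side of component 1 (0.0016), GPX7 with single libraries left out (-0.012 to 0.099) and GPX8 likewise (-0.078 to 0.057). The number of the 10 genes called was 1, and 0 to 1 with single libraries left out. The number of genes called over all rows was 95 with edgeR, 328 with DESeq2, 158 with no filter, 381 with the side as a term and 0 to 136 with single libraries left out. It was 0 without control 1 and without sedanolide 2, where 1067 and 889 genes had an unadjusted p under 0.05 in edgeR, GPX2 among them (unadjusted p = 0.000334 and 0.000261), and it was 8, 29, 13 and 136 without control 2, control 3, sedanolide 1 and sedanolide 3. List genes called were 1 with edgeR, 3 with DESeq2, 2 with no filter, 3 with the side as a term and 0 to 1 with single libraries left out. In the log2 TPM table, members called by limma were 1, 2 with the side as a term, since GPX3 passed, and 0 to 1 with single libraries left out. The cause of these changes was not tested.

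The replicate numbers are shared by the groups in the labels, but same-numbered libraries did not deviate together (correlations of -0.13, -0.30 and -0.73). In each such pair the control and the sedanolide library stood on opposite sides of the first component. With 3 libraries per group, these correlations cannot show whether a pair shared a culture or preparation, which was not tested. With the replicate block, 0 members, 0 list genes and 0 genes over all rows were called in edgeR, where 772 genes had an unadjusted p under 0.05, and 0 members in limma. GPX2 then had a log2 fold change of 1.52 with an adjusted p of 0.424 and an unadjusted p of 0.000863.

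Depth limits GPX7 most among the 10 genes, with 104 to 164 expected counts per library. Which genes were tested was set by filterByExpr, and list genes with up to 12 counts in a library were left untested.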
